A study of Saccharomyces cerevisiae with 18 samples.

Results

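The general stress genes described here are 31 genes of the budding yeast Saccharomyces cerevisiae that belong to the environmental stress response driven by the transcription factors Msn2 and Msn4. They were taken by name from a list of general stress genes, with the trehalose, catalase and chaperone machinery left out. The choice was made with earlier results of these data known, so counts of calls among them are descriptions. Each was found on the array by the platform annotation. All 31 of the 31 listed genes had 1 probe set, out of 5449 yeast genes measured. The lowest level of any of them on any array was 7.28 on the log2 scale, against a background level of 4.518 set by the probe sets of the other organism on the same array.

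Msn2 and Msn4 are zinc finger activators that bind the stress response element, a short motif found in the promoters of many stress genes. In growing cells, protein kinase A holds them in the cytoplasm, and on heat, osmotic, oxidative or starvation stress they enter the nucleus. Their targets include small protective proteins, enzymes that remove aldehydes or make glycerol, glucose-phosphorylating enzymes, mitochondrial proteins and inhibitors of vacuolar proteases.

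Total RNA was measured on 18 Affymetrix expression arrays. The cells were SWI6 wild type, a swi6 deletant, or a Swi6 point mutant with a cysteine changed to alanine (C404A), and Swi6 is the subunit shared by the G1 transcription factors SBF and MBF. Each genotype was sampled as control and after 45 min with 30 µM linoleic acid hydroperoxide (LoaOOH), an oxidised fatty acid that stresses cells as a lipid peroxide, with 3 replicates in each of the 6 groups. All cultures grew at 30 °C in synthetic medium without leucine to an OD600 of 0.4. The series asks whether that cysteine takes part in the redox control of the cell cycle. Neither the strain background nor how the SWI6 alleles were carried is named in the labels. Replicates are not described there as separate cultures, so p-values measure the spread between these samples, which may be technical. Levels are the deposited log2 values. A gene is called where the limma p-value, with Benjamini-Hochberg adjustment across the 5449 genes, is below 0.05, and ± is the SE of the limma fit with 3 arrays per group unless SD is written.

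Array medians over the 5449 genes lay within 0.0771 of each other. SWI6 itself averaged 10.4 ± 0.210 (SD, n = 3) in wild type control cells, 10.2 ± 0.0763 (SD, n = 3) in C404A control cells and 3.45 ± 0.251 (SD, n = 3) in deletant control cells, where it was below background. Chromosome V genes stood above their wild type level in the mutants, by a median of 0.758 in the deletant and 0.696 in C404A control cells over 259 genes, and RGI1 is the 1 general stress gene that lies there. The C404A pair of replicate 2 stood apart from the other 8 pairs of control and LoaOOH arrays with the same replicate number. In that pair the array labelled LoaOOH lay below the array labelled control for 31 of the 31 genes, with a median difference of -0.182. In each of the other 8 pairs, 27 to 31 of the 31 genes were higher on the LoaOOH array, with medians from 0.353 to 0.66. Over all 5449 genes the LoaOOH difference of that pair correlated with those of the other 8 pairs at Pearson's r from -0.603 to -0.214. For this reason results that rest on the pair are given with it and without its 2 arrays.

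**Figure D1:**
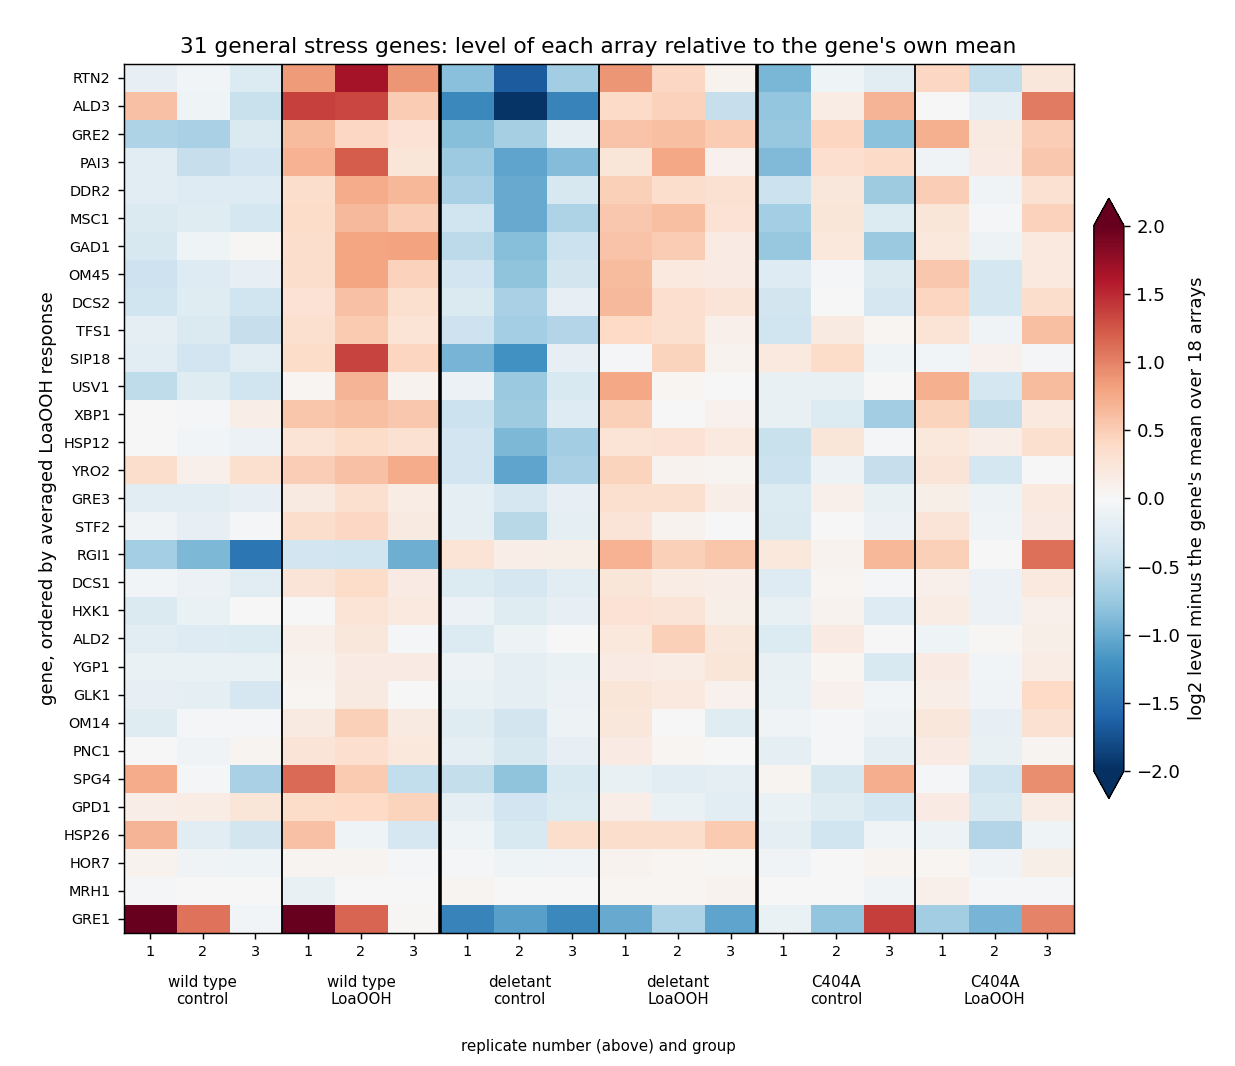
Level of each of the 31 genes (lines, ordered by the averaged LoaOOH response) on each of the 18 arrays (columns, by group and replicate number), as the log2 level minus the mean of the gene over all arrays. Colours saturate at -2 and 2. LoaOOH columns are mostly red beside blue control columns, apart from C404A replicate 2, and GRE1 and SPG4 differ more between replicates than between treatments.

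LoaOOH raised most of the general stress genes. In the response averaged over the 3 genotypes, 25 of the 31 genes rose and none fell, where 9.56% of all genes rose and 21% were called in either direction (limma with Benjamini-Hochberg adjustment). The median difference of the 31 genes was 0.36 on the log2 scale, and over all 5449 genes it was 0.00088. Without the C404A replicate 2 arrays, 26 of the 31 genes rose, RGI1 in addition, beside 13.1% of all genes, and the median was 0.43. Taking the 8 other pairs separately, 24 of the 31 genes were higher on the LoaOOH array in each of the 8, as were 14.9% of all genes. Leaving out any of the 18 arrays left 24 to 26 genes called, and GPD1 was the only gene that lost its call. With the 12 arrays of replicates 1 and 2 alone, which carry the prefix CT in their descriptions, 19 of the 31 genes were called, beside 9.74% of all genes. Fewer stressed cells and a smaller change in each cell cannot be told apart in bulk RNA.

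**Figure D2:**
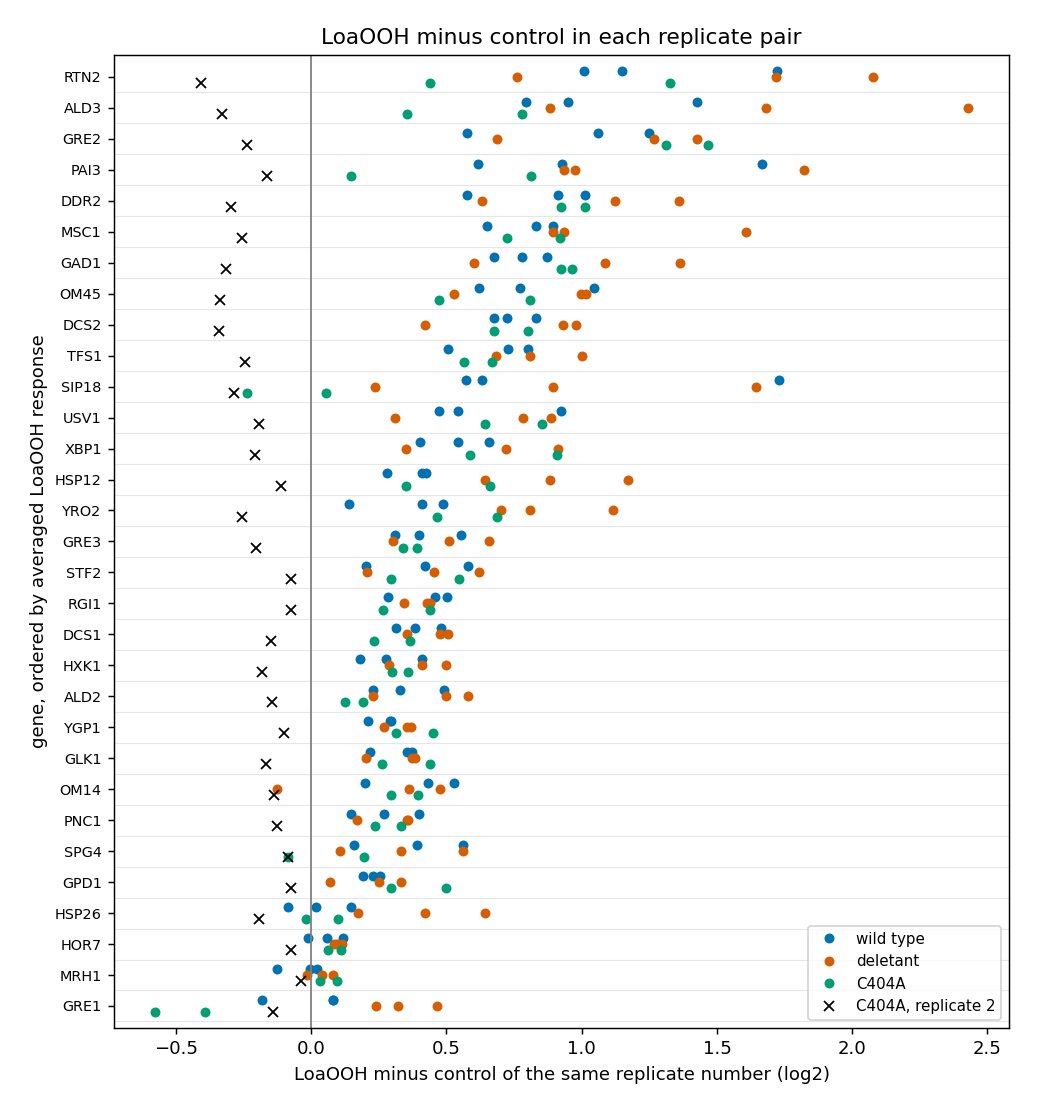
Difference between the LoaOOH and the control array of the same replicate number (log2, horizontal axis) for each of the 31 genes, with 3 pairs of each genotype. Crosses mark C404A replicate 2, which lies left of 0 for all 31 genes, while 24 genes have their 8 other pairs right of 0.

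Among the small stress and hydrophilic proteins, 5 of 9 genes rose in the averaged response. HSP12 encodes a small membrane-associated heat shock protein. In wild type, HSP12 stood at 14.16, 14.11 and 14.06 in control cells and 14.44, 14.54 and 14.47 after LoaOOH. In the deletant, HSP12 stood at 13.79, 13.28 and 13.48 in control cells and 14.44, 14.46 and 14.37 after LoaOOH. In C404A, HSP12 stood at 13.73, 14.42 and 14.15 in control cells and 14.39, 14.31 and 14.50 after LoaOOH. The 3 LoaOOH arrays of the wild type and of the deletant lay above their controls, and in C404A control replicate 2 was as high as the LoaOOH arrays. HSP12 rose by 0.52 ± 0.0814 in the average (adjusted p = 0.00131 by limma) and by 0.59 ± 0.0743 without C404A replicate 2 (adjusted p = 0.000107). The probe set lies near the top of the scale, whose highest value on any array is 14.99.

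DDR2 is a stress gene first found through DNA damage, and HOR7 is its paralog. Wild type arrays gave DDR2 at 11.65, 11.62 and 11.63 in control cells and 12.23, 12.63 and 12.55 after LoaOOH. Deletant arrays gave DDR2 at 11.24, 10.88 and 11.56 in control cells and 12.36, 12.24 and 12.19 after LoaOOH. C404A arrays gave DDR2 at 11.45, 12.10 and 11.17 in control cells and 12.37, 11.81 and 12.18 after LoaOOH. Both other C404A pairs, like all pairs of the wild type and the deletant, had the LoaOOH arrays above the controls without overlap. DDR2 rose by 0.81 ± 0.123 (adjusted p = 0.00122 by limma), and by 0.95 ± 0.0939 without C404A replicate 2. HOR7, by contrast, kept within 0.202 on the log2 scale over all 18 arrays, from 14.5 to 14.7, and its averaged difference of 0.063 ± 0.0350 was not called (adjusted p = 0.221). HOR7 also lies near the top of the scale.

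MSC1, a gene named for a phenotype in meiotic recombination, had the lowest adjusted p of the 31 genes. In wild type, MSC1 stood at 12.68, 12.73 and 12.62 in control cells and 13.33, 13.62 and 13.45 after LoaOOH. In the deletant, MSC1 stood at 12.56, 11.96 and 12.35 in control cells and 13.50, 13.57 and 13.25 after LoaOOH. In C404A, MSC1 stood at 12.28, 13.20 and 12.69 in control cells and 13.21, 12.94 and 13.42 after LoaOOH. Its LoaOOH arrays lay above the controls in the wild type and the deletant, and in C404A the control of replicate 2 reached into the range of the LoaOOH arrays. MSC1 rose by 0.80 ± 0.114, or 1.74-fold (adjusted p = 0.000967 by limma), and by 0.92 ± 0.0935 without C404A replicate 2.

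YGP1 encodes a secreted glycoprotein related to the cell wall. Wild type cells had YGP1 at 13.90, 13.91 and 13.91 in control cells and 14.11, 14.21 and 14.20 after LoaOOH. Deletant cells had YGP1 at 13.94, 13.84 and 13.91 in control cells and 14.21, 14.19 and 14.28 after LoaOOH. C404A cells had YGP1 at 13.89, 14.08 and 13.74 in control cells and 14.20, 13.98 and 14.19 after LoaOOH. The change was small and even, with no overlap in the wild type or the deletant. YGP1 rose by 0.27 ± 0.0458 (adjusted p = 0.00150 by limma), and by 0.33 ± 0.0342 without C404A replicate 2.

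SIP18 and GRE1 are paralogs that encode hydrophilins, water-loving proteins made on osmotic stress and drying. SIP18 in wild type stood at 8.27, 8.11 and 8.27 in control cells and 8.85, 9.84 and 8.91 after LoaOOH. SIP18 in the deletant stood at 7.56, 7.28 and 8.32 in control cells and 8.45, 8.93 and 8.56 after LoaOOH. SIP18 in C404A stood at 8.68, 8.86 and 8.40 in control cells and 8.44, 8.58 and 8.46 after LoaOOH. In C404A the control arrays were as high as the LoaOOH arrays, also without replicate 2, with pair differences of -0.24, -0.28 and 0.054 against 0.57, 1.73 and 0.63 in wild type. SIP18 rose by 0.58 ± 0.150 in the average (adjusted p = 0.0125 by limma) and by 0.60 ± 0.170 without C404A replicate 2 (adjusted p = 0.0183).

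GRE1 was not called in the averaged response. In wild type, GRE1 stood at 12.27, 11.08 and 9.95 in control cells and 12.09, 11.16 and 10.03 after LoaOOH. In the deletant, GRE1 stood at 8.67, 8.92 and 8.71 in control cells and 9.00, 9.38 and 8.95 after LoaOOH. In C404A, GRE1 stood at 9.87, 9.21 and 11.38 in control cells and 9.30, 9.07 and 10.99 after LoaOOH. In wild type, control and LoaOOH arrays of the same replicate number were close, while the replicates differed from each other by up to 2.19 in the mean of their 2 arrays. The averaged difference was -0.011 ± 0.381 (adjusted p = 0.987 by limma), with a 95% interval of -0.83 to 0.80, and -0.050 ± 0.393 without C404A replicate 2. SPG4, needed for survival at high temperature in stationary phase, ranged from 10.6 to 12.6 over the arrays and had an averaged difference of 0.24 ± 0.247 with an interval of -0.29 to 0.76 (adjusted p = 0.526). With the control and LoaOOH arrays of the same genotype and replicate number as a block, SPG4 was called, at 0.24 ± 0.0590 (adjusted p = 0.0155 by limma). HSP26, a small heat shock protein, ranged from 11.9 to 13.2 and differed by 0.13 ± 0.154 with an interval of -0.19 to 0.46 (adjusted p = 0.568).

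The enzymes of aldehyde, glycerol and NAD metabolism were called without exception, 7 of 7 genes in the averaged response. GRE2 encodes a reductase of methylglyoxal and other carbonyls. In wild type, GRE2 stood at 11.85, 11.83 and 12.18 in control cells and 13.10, 12.89 and 12.76 after LoaOOH. In the deletant, GRE2 stood at 11.62, 11.81 and 12.30 in control cells and 13.05, 13.08 and 12.98 after LoaOOH. In C404A, GRE2 stood at 11.72, 12.90 and 11.65 in control cells and 13.18, 12.66 and 12.97 after LoaOOH. The LoaOOH arrays lay above the controls in the wild type and the deletant, while the C404A control of replicate 2 was far above both other C404A controls and close to its LoaOOH arrays. GRE2 rose by 0.98 ± 0.152, or 1.97-fold (adjusted p = 0.00131 by limma), and by 1.16 ± 0.0948 without C404A replicate 2. GRE3 encodes an aldose reductase. GRE3 in wild type stood at 12.58, 12.58 and 12.64 in control cells and 12.98, 13.13 and 12.95 after LoaOOH. GRE3 in the deletant stood at 12.61, 12.47 and 12.64 in control cells and 13.12, 13.13 and 12.94 after LoaOOH. GRE3 in C404A stood at 12.53, 12.91 and 12.66 in control cells and 12.92, 12.70 and 13.00 after LoaOOH. Its pattern was that of GRE2 on a smaller scale, with C404A replicate 2 again reversed, and it rose by 0.36 ± 0.0569 (adjusted p = 0.00131; 0.43 ± 0.0454 without that pair).

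ALD2 and ALD3 are adjacent paralogs on chromosome XIII for cytosolic aldehyde dehydrogenases. ALD3 in wild type stood at 10.85, 10.18 and 9.82 in control cells and 11.64, 11.60 and 10.77 after LoaOOH. ALD3 in the deletant stood at 8.97, 8.30 and 8.93 in control cells and 10.65, 10.73 and 9.81 after LoaOOH. ALD3 in C404A stood at 9.49, 10.42 and 10.95 in control cells and 10.27, 10.09 and 11.31 after LoaOOH. The deletant controls were the lowest arrays, below every wild type array, and replicates of the wild type and of C404A were wide apart. ALD3 rose by 1.00 ± 0.239 (adjusted p = 0.00851 by limma), and by 1.10 ± 0.266 without C404A replicate 2 (adjusted p = 0.00801). ALD2 in wild type stood at 10.48, 10.45 and 10.44 in control cells and 10.81, 10.94 and 10.67 after LoaOOH. ALD2 in the deletant stood at 10.43, 10.61 and 10.70 in control cells and 10.92, 11.19 and 10.93 after LoaOOH. ALD2 in C404A stood at 10.44, 10.88 and 10.70 in control cells and 10.63, 10.73 and 10.82 after LoaOOH. ALD2 moved less, with separate groups in the wild type and the deletant and overlap in C404A with or without replicate 2, and rose by 0.28 ± 0.0638 (adjusted p = 0.00639; 0.31 ± 0.0645 without that pair). Paralogs can cross-hybridise on arrays, and this was not tested.

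GAD1 encodes glutamate decarboxylase, which makes gamma-aminobutyrate. In wild type, GAD1 stood at 11.72, 11.95 and 12.06 in control cells and 12.39, 12.82 and 12.84 after LoaOOH. In the deletant, GAD1 stood at 11.51, 11.18 and 11.60 in control cells and 12.60, 12.55 and 12.20 after LoaOOH. In C404A, GAD1 stood at 11.28, 12.25 and 11.30 in control cells and 12.24, 11.94 and 12.23 after LoaOOH. The separation of control and LoaOOH was complete in the wild type and the deletant, and in C404A it failed through replicate 2. GAD1 rose by 0.77 ± 0.128 (adjusted p = 0.00148 by limma), and by 0.91 ± 0.0915 without that pair.

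GPD1 encodes the glycerol 3-phosphate dehydrogenase that commits cells to glycerol synthesis under osmotic stress. In wild type, GPD1 stood at 12.92, 12.93 and 13.03 in control cells and 13.15, 13.18 and 13.23 after LoaOOH. In the deletant, GPD1 stood at 12.59, 12.40 and 12.50 in control cells and 12.92, 12.65 and 12.57 after LoaOOH. In C404A, GPD1 stood at 12.65, 12.54 and 12.43 in control cells and 12.95, 12.47 and 12.93 after LoaOOH. Within each treatment every wild type array lay above every mutant array, and the deletant LoaOOH array of replicate 3 lay within the range of its controls. GPD1 had the smallest called change, 0.23 ± 0.0674 (adjusted p = 0.0258 by limma), against 0.28 ± 0.0555 without C404A replicate 2 (adjusted p = 0.00225). The call was lost without deletant control replicate 2 (adjusted p = 0.0545), deletant LoaOOH replicate 1 (0.0554), C404A LoaOOH replicate 1 (0.0559) or C404A LoaOOH replicate 3 (0.0549).

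PNC1, the nicotinamidase that feeds the NAD salvage pathway, changed little but evenly. Wild type cells had PNC1 at 13.50, 13.44 and 13.57 in control cells and 13.77, 13.84 and 13.72 after LoaOOH. Deletant cells had PNC1 at 13.31, 13.18 and 13.34 in control cells and 13.67, 13.54 and 13.51 after LoaOOH. C404A cells had PNC1 at 13.33, 13.49 and 13.33 in control cells and 13.67, 13.36 and 13.57 after LoaOOH. In the wild type and the deletant the groups did not overlap. PNC1 rose by 0.24 ± 0.0462 (adjusted p = 0.00299 by limma), and by 0.28 ± 0.0400 without C404A replicate 2.

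Of the sugar kinases and mitochondrial or respiratory growth proteins, 5 of 6 rose in the averaged response. OM45 encodes a protein of the mitochondrial outer membrane. In wild type, OM45 stood at 11.17, 11.32 and 11.42 in control cells and 11.94, 12.37 and 12.05 after LoaOOH. In the deletant, OM45 stood at 11.20, 10.77 and 11.21 in control cells and 12.22, 11.77 and 11.74 after LoaOOH. In C404A, OM45 stood at 11.32, 11.56 and 11.30 in control cells and 12.12, 11.23 and 11.77 after LoaOOH. Apart from C404A replicate 2, LoaOOH arrays lay above the controls of their genotype. OM45 rose by 0.66 ± 0.115 (adjusted p = 0.00180 by limma), and by 0.77 ± 0.0997 without that pair. OM14, another outer membrane protein, in wild type stood at 12.09, 12.29 and 12.31 in control cells and 12.52, 12.82 and 12.51 after LoaOOH. OM14 in the deletant stood at 12.10, 11.97 and 12.23 in control cells and 12.57, 12.34 and 12.10 after LoaOOH. OM14 in C404A stood at 12.27, 12.32 and 12.24 in control cells and 12.56, 12.18 and 12.64 after LoaOOH. The deletant groups overlapped through replicate 3, and OM14 rose by 0.27 ± 0.0765 (adjusted p = 0.0213; 0.32 ± 0.0738 without C404A replicate 2).

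STF2 encodes a hydrophilic protein first described as a stabilising factor of the mitochondrial ATP synthase. In wild type, STF2 stood at 13.48, 13.39 and 13.52 in control cells and 13.91, 13.97 and 13.73 after LoaOOH. In the deletant, STF2 stood at 13.36, 13.00 and 13.36 in control cells and 13.81, 13.62 and 13.56 after LoaOOH. In C404A, STF2 stood at 13.26, 13.56 and 13.43 in control cells and 13.81, 13.48 and 13.72 after LoaOOH. No overlap was seen in the wild type or the deletant. STF2 rose by 0.36 ± 0.0664 (adjusted p = 0.00231 by limma), and by 0.42 ± 0.0649 without C404A replicate 2.

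GLK1 and HXK1 encode glucokinase and a hexokinase. GLK1 in wild type stood at 13.51, 13.48 and 13.34 in control cells and 13.72, 13.85 and 13.69 after LoaOOH. GLK1 in the deletant stood at 13.55, 13.50 and 13.56 in control cells and 13.92, 13.88 and 13.77 after LoaOOH. GLK1 in C404A stood at 13.55, 13.76 and 13.63 in control cells and 13.81, 13.60 and 14.07 after LoaOOH. GLK1 separated control from LoaOOH in the wild type and the deletant and rose by 0.27 ± 0.0568 (adjusted p = 0.00418 by limma; 0.33 ± 0.0479 without C404A replicate 2). HXK1 in wild type stood at 13.32, 13.48 and 13.63 in control cells and 13.60, 13.89 and 13.81 after LoaOOH. HXK1 in the deletant stood at 13.50, 13.38 and 13.45 in control cells and 13.91, 13.88 and 13.74 after LoaOOH. HXK1 in C404A stood at 13.47, 13.68 and 13.36 in control cells and 13.77, 13.50 and 13.71 after LoaOOH. In the wild type, control replicate 3 lay above LoaOOH replicate 1, and HXK1 rose by 0.28 ± 0.0609 (adjusted p = 0.00491; 0.34 ± 0.0562 without C404A replicate 2).

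RGI1 encodes a protein induced in respiratory growth. In wild type, RGI1 stood at 11.66, 11.44 and 10.89 in control cells and 11.95, 11.94 and 11.35 after LoaOOH. In the deletant, RGI1 stood at 12.60, 12.47 and 12.45 in control cells and 13.03, 12.81 and 12.89 after LoaOOH. In C404A, RGI1 stood at 12.55, 12.40 and 12.99 in control cells and 12.81, 12.33 and 13.43 after LoaOOH. Every mutant array lay above every wild type array, and within a genotype the LoaOOH array was higher in 8 of 9 pairs. The averaged response of 0.34 ± 0.146 was not called with all arrays (adjusted p = 0.108 by limma) and was called without C404A replicate 2, at 0.39 ± 0.136 (adjusted p = 0.0490). With the control and LoaOOH arrays of the same genotype and replicate number as a block it was called as well, at 0.34 ± 0.0511 (adjusted p = 0.00579 by limma).

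Both protease inhibitors rose. TFS1 encodes an inhibitor of carboxypeptidase Y. In wild type, TFS1 stood at 12.48, 12.37 and 12.20 in control cells and 12.98, 13.18 and 12.93 after LoaOOH. In the deletant, TFS1 stood at 12.24, 11.98 and 12.07 in control cells and 13.05, 12.98 and 12.76 after LoaOOH. In C404A, TFS1 stood at 12.25, 12.83 and 12.70 in control cells and 12.92, 12.59 and 13.26 after LoaOOH. In the wild type and the deletant LoaOOH arrays lay above the controls throughout, and TFS1 rose by 0.61 ± 0.0952 (adjusted p = 0.00131 by limma; 0.71 ± 0.0836 without C404A replicate 2). PAI3 encodes the inhibitor of proteinase A. In wild type, PAI3 stood at 8.13, 7.89 and 7.97 in control cells and 9.05, 9.56 and 8.59 after LoaOOH. In the deletant, PAI3 stood at 7.62, 7.30 and 7.49 in control cells and 8.59, 9.13 and 8.43 after LoaOOH. In C404A, PAI3 stood at 7.47, 8.68 and 8.74 in control cells and 8.28, 8.52 and 8.89 after LoaOOH. C404A replicate 1 was low and replicate 3 high in both treatments, so the groups overlapped there also without replicate 2. PAI3 rose by 0.86 ± 0.176 (adjusted p = 0.00378), and by 0.93 ± 0.193 without that pair.

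DCS1 encodes the scavenger enzyme that hydrolyses the cap left after mRNA decay, and DCS2 is its stress-induced paralog. DCS1 in wild type stood at 12.42, 12.35 and 12.24 in control cells and 12.73, 12.83 and 12.63 after LoaOOH. DCS1 in the deletant stood at 12.20, 12.14 and 12.24 in control cells and 12.71, 12.62 and 12.60 after LoaOOH. DCS1 in C404A stood at 12.21, 12.51 and 12.44 in control cells and 12.57, 12.36 and 12.67 after LoaOOH. DCS1 rose by 0.33 ± 0.0521 (adjusted p = 0.00137 by limma; 0.38 ± 0.0468 without C404A replicate 2), with no overlap in the wild type or the deletant. DCS2 in wild type stood at 11.44, 11.59 and 11.43 in control cells and 12.12, 12.42 and 12.15 after LoaOOH. DCS2 in the deletant stood at 11.55, 11.19 and 11.67 in control cells and 12.48, 12.17 and 12.09 after LoaOOH. DCS2 in C404A stood at 11.47, 11.83 and 11.50 in control cells and 12.27, 11.49 and 12.18 after LoaOOH. For DCS2 too, all LoaOOH arrays but that of C404A replicate 2 lay above the controls of their genotype other than that of C404A replicate 2, and it rose by 0.63 ± 0.107 (adjusted p = 0.00154; 0.75 ± 0.0804 without that pair).

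RTN2, a reticulon that shapes the endoplasmic reticulum, had the largest averaged response of the 31 genes. In wild type, RTN2 stood at 9.60, 9.70 and 9.49 in control cells and 10.61, 11.42 and 10.64 after LoaOOH. In the deletant, RTN2 stood at 8.92, 8.10 and 9.07 in control cells and 10.64, 10.18 and 9.83 after LoaOOH. In C404A, RTN2 stood at 8.84, 9.68 and 9.55 in control cells and 10.17, 9.27 and 9.99 after LoaOOH. The LoaOOH arrays lay above all controls in the wild type and in the deletant, and in C404A replicate 2 crossed over. RTN2 rose by 1.09 ± 0.182, or 2.13-fold (adjusted p = 0.00150 by limma), and by 1.23 ± 0.181 without C404A replicate 2.

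YRO2 and MRH1 are paralogs for plasma membrane proteins. YRO2 in wild type stood at 11.96, 11.71 and 11.93 in control cells and 12.10, 12.19 and 12.34 after LoaOOH. YRO2 in the deletant stood at 11.23, 10.55 and 10.96 in control cells and 12.05, 11.67 and 11.66 after LoaOOH. YRO2 in C404A stood at 11.17, 11.51 and 11.14 in control cells and 11.86, 11.26 and 11.61 after LoaOOH. The deletant controls were the lowest group, and YRO2 rose by 0.51 ± 0.103 (adjusted p = 0.00360 by limma; 0.60 ± 0.0967 without C404A replicate 2). MRH1 kept within 0.250 over the 18 arrays, between 14.0 and 14.2, and differed by 0.010 ± 0.0327 with an interval of -0.060 to 0.080 (adjusted p = 0.849).

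Both transcription factors of the list rose. XBP1 encodes a repressor made on stress and in quiescence. In wild type, XBP1 stood at 8.87, 8.82 and 9.00 in control cells and 9.41, 9.47 and 9.40 after LoaOOH. In the deletant, XBP1 stood at 8.43, 8.15 and 8.60 in control cells and 9.34, 8.87 and 8.95 after LoaOOH. In C404A, XBP1 stood at 8.71, 8.59 and 8.16 in control cells and 9.30, 8.38 and 9.06 after LoaOOH. XBP1 rose by 0.54 ± 0.117 (adjusted p = 0.00490 by limma; 0.65 ± 0.0967 without C404A replicate 2), with no overlap in the wild type or the deletant. USV1 encodes a zinc finger factor. In wild type, USV1 stood at 8.70, 8.96 and 8.80 in control cells and 9.24, 9.88 and 9.28 after LoaOOH. In the deletant, USV1 stood at 9.09, 8.47 and 8.90 in control cells and 9.98, 9.25 and 9.21 after LoaOOH. In C404A, USV1 stood at 9.06, 9.06 and 9.20 in control cells and 9.91, 8.86 and 9.84 after LoaOOH. The groups were separate in the wild type and the deletant, and USV1 rose by 0.58 ± 0.155 (adjusted p = 0.0154; 0.69 ± 0.136 without C404A replicate 2).

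Within each genotype the response was less firmly resolved. In wild type, 0 of the 31 genes were called by limma, beside 0.257% of all genes, although 29 differed upwards. An unadjusted p below 0.05 was reached by 23 of the 31 genes, against 1027 of all 5449. All LoaOOH arrays lay above all controls for 23 of the 31, against 12.5% of all genes. The median difference was 0.40 for the 31 genes and 0.0020 for all genes. Without the C404A replicate 2 arrays, which enter only the estimate of the spread here, 15 of the 31 genes were called in wild type, beside 8.79% of all genes. With an intensity trend in the variance prior, 7 were called, beside 1.78% of all genes. In the deletant, 16 of the 31 genes rose and none fell, where 3.56% of all genes were called, 99 of 5449 higher and 95 lower. For 28 of the 31 all LoaOOH arrays lay above all controls, against 13.9% of all genes. Without the C404A replicate 2 arrays 21 rose, where 9.82% of all genes were called, 220 higher and 315 lower. The deletant count fell to 8 without LoaOOH replicate 3 and to 3 without control replicate 1. It fell to 0 when control replicate 2 or 3 or LoaOOH replicate 1 or 2 was left out. With the CT arrays alone it was 0, and the share over all genes is not given for that run. Calls over all genes fell as well when single arrays were left out, to between 0 and 59 from 194 of 5449. The largest deletant changes were 1.67 ± 0.415 for ALD3 (adjusted p = 0.0429), 1.52 ± 0.315 for RTN2 (0.0281) and 1.24 ± 0.305 for PAI3 (0.0413).

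In C404A, 0 of the 31 genes were called by limma with all arrays, beside 0% of all genes. A total of 28 differed upwards, and 7 had an unadjusted p below 0.05, against 319 of all 5449 genes. The LoaOOH arrays lay wholly above the controls for 0 of the 31, against 1.93% of all genes. They lay wholly below for 0 of the 31, against 89 of all 5449 genes. Without both replicate 2 arrays, 8 of the 31 genes rose, where 3.98% of all genes were called, 92 higher and 125 lower. The median difference of the 31 genes went from 0.24 to 0.40. The 8 were DDR2, YGP1, MSC1, GAD1, GRE2, GRE3, DCS2 and XBP1, among them GRE2 at 1.39 ± 0.186 (adjusted p = 0.00219) and MSC1 at 0.82 ± 0.184 (adjusted p = 0.0303). Leaving out only the LoaOOH array of replicate 2 gave 3 called genes, beside 3.36% of all genes, and leaving out only its control array gave 1, beside 0.257%. Leaving out any of the 6 C404A arrays moved the median from 0.13, without LoaOOH replicate 3, to 0.35, without LoaOOH replicate 2.

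A difference between the genotypes in the response was not detected for any of the 31 genes. The deletant response minus that of wild type passed the adjusted threshold for 0 of 31 genes, beside 0% of all genes, and the unadjusted one for 1, against 20 of all 5449. It was positive for 26 of the 31, with a median of 0.072. Leaving out 1 array moved the median from 0.018, without wild type LoaOOH replicate 3 and with 19 positive, to 0.15, without wild type LoaOOH replicate 2 and with 29 positive. It was 0.030 without deletant control replicate 2, 0.044 without deletant LoaOOH replicate 1, and 0.13 without deletant control or LoaOOH replicate 3. The largest value was 0.61 ± 0.587 for ALD3, with a 95% interval of -0.64 to 1.86. For HSP12 it was 0.53 ± 0.200, with an interval of 0.10 to 0.95 that is not adjusted for the number of genes. HSP12 lies near the top of the scale after LoaOOH, and whether this limits its response was not tested. The C404A response minus that of wild type passed for 0 of 31 genes, beside 0% of all genes, and unadjusted for 1, against 33 of all 5449. With all arrays it was negative for 29 of the 31, with a median of -0.21, which became -0.054 without C404A LoaOOH replicate 2 alone and -0.13 without wild type LoaOOH replicate 2. Without C404A replicate 2 it was negative for 14 and positive for 17, with a median of 0.013. SIP18 had the most negative value, -1.13 ± 0.368 with an interval of -1.92 to -0.35, and -1.07 ± 0.431 without C404A replicate 2 (adjusted p = 1.00).

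Before treatment, several of the genes were lower in the swi6 deletant than in wild type. In control cells 5 of the 31 genes were lower in the deletant and 1, RGI1, was higher, beside 3.17% of all genes lower and 10.1% called in either direction. The difference was negative for 27 of the 31, with a median of -0.23, against -0.0060 over all genes. Without deletant control replicate 2, in which the 31 genes were lowest, it was negative for 21, with a median of -0.11. All 3 deletant controls lay below all wild type controls for 14 of the 31 genes, against 14.1% of all genes. GRE1 was lower by 2.34 ± 0.660, or 5.05-fold (adjusted p = 0.0342 by limma), and the 3 deletant arrays lay between 8.67 and 8.92 where wild type arrays ran from 9.95 to 12.3. With the replicate number as a block the GRE1 call was lost (adjusted p = 0.0505). ALD3 was lower by 1.55 ± 0.415 (adjusted p = 0.0255), YRO2 by 0.95 ± 0.178 (0.00200), HSP12 by 0.59 ± 0.141 (0.0132) and GPD1 by 0.47 ± 0.117 (0.0174), each with separate groups.

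The calls in deletant control cells rested on few arrays. Leaving out single arrays left 3, 4 and 5 genes called for wild type control replicates 1, 2 and 3 in turn, 5 without deletant control replicate 1 or 3, and 2 without deletant control replicate 2. Over all genes these runs called 361 to 484, against 551 with all arrays. YRO2 and RGI1 kept their calls throughout, and GRE1 kept its call only without wild type control replicate 3. Without both C404A replicate 2 arrays the 6 genes were called and PNC1 was lower in addition, beside 11.2% of all genes.

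In control cells of C404A, GPD1 was lower than in wild type by 0.42 ± 0.117 (adjusted p = 0.0383 by limma) and RGI1 was higher by 1.32 ± 0.253 (adjusted p = 0.00319), beside 8.24% of all genes called. The GPD1 call was kept only without C404A control replicate 1 when single arrays were left out. Without both C404A replicate 2 arrays 4 genes were called, beside 7.4% of all genes, with GAD1 at -0.62 ± 0.164 and YRO2 at -0.71 ± 0.173 in addition. Between the control cells of the mutants, C404A minus deletant, 6 of the 31 genes had an unadjusted p below 0.05, against 821 of all 5449. The number called by limma was 0 of the 31, beside 1.8% of all genes. Without both C404A replicate 2 arrays it was again 0, beside 1.47% of all genes. Without C404A control replicate 1, 3 genes were called (HSP12, ALD3 and PAI3). HSP12 was called without deletant control replicate 1, and SIP18 without deletant control replicate 3. Over all genes the runs with a single array left out called 40 to 99, against 98 of 5449 with all arrays.

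**Figure D3:**
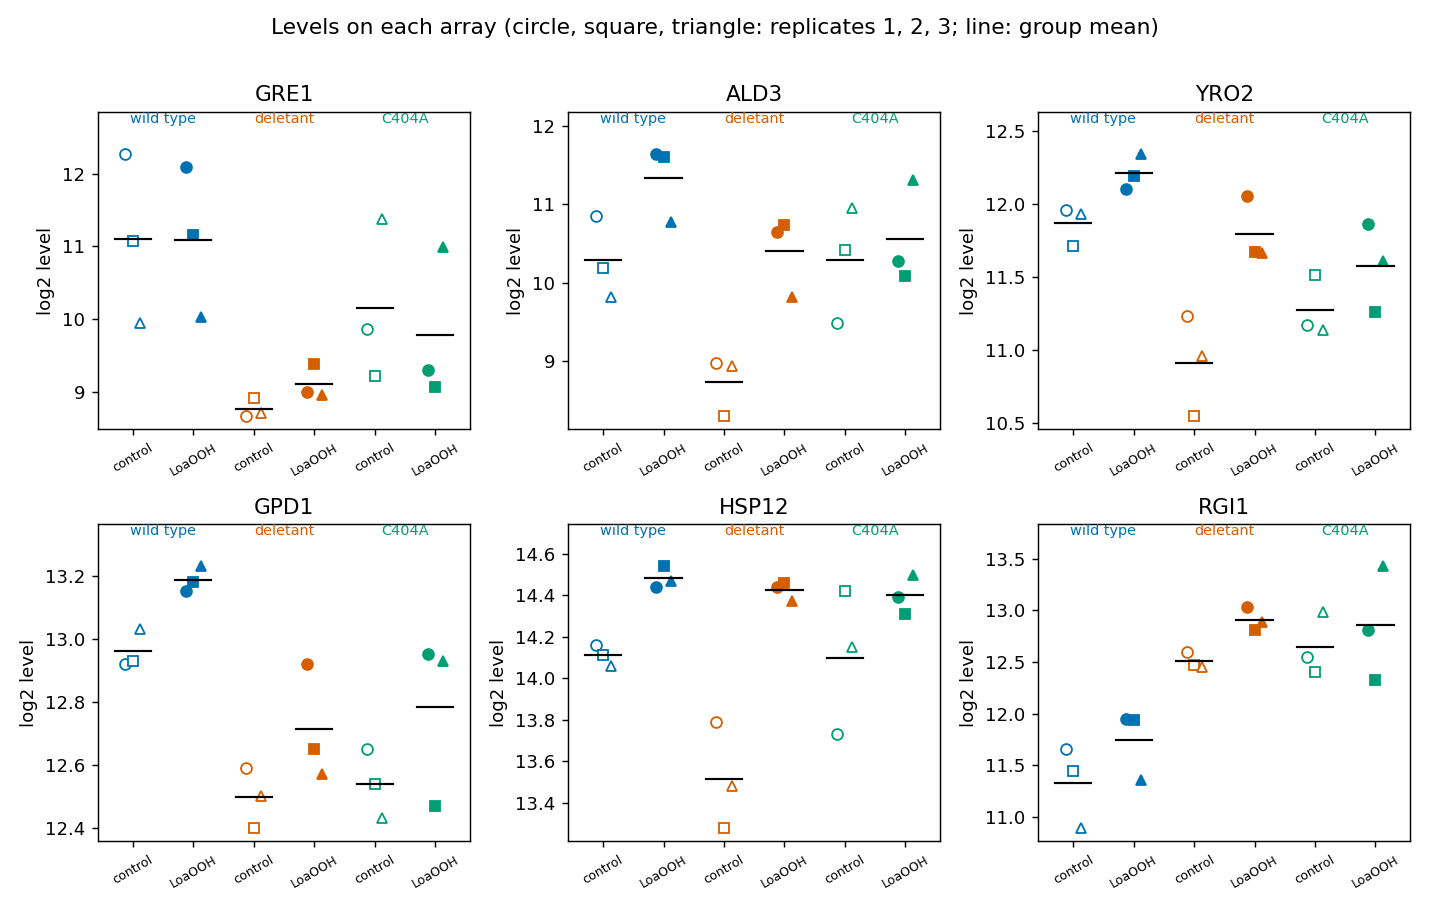
Log2 level of GRE1, ALD3, YRO2, GPD1, HSP12 and RGI1 on each array, by genotype, with open symbols for control and filled symbols for LoaOOH cells. Circles, squares and triangles are replicates 1, 2 and 3, and lines are group means. Wild type GPD1 lies above both mutants within each treatment, RGI1 lies below them, and wild type GRE1 spreads from 9.95 to 12.3.

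After LoaOOH, GPD1 and RGI1 again differed between the mutants and wild type. In the deletant 2 of the 31 genes were called against wild type, beside 10.4% of all genes: GPD1 at -0.47 ± 0.117 (adjusted p = 0.0154 by limma) and RGI1 at 1.17 ± 0.253 (adjusted p = 0.00634). GPD1 lost its call without wild type LoaOOH replicate 3 or deletant LoaOOH replicate 2 or 3. HSP12, lower in deletant control cells, differed by -0.062 ± 0.141 after LoaOOH (adjusted p = 0.868 by limma), where it lies near the top of the scale. ALD3 differed by -0.94 ± 0.415 (adjusted p = 0.191). In C404A, 3 of the 31 genes were called, beside 7.38% of all genes: GPD1 at -0.40 ± 0.117 (adjusted p = 0.0486), YRO2 at -0.63 ± 0.178 (0.0421) and RGI1 at 1.11 ± 0.253 (0.0117). Leaving out single arrays gave 0 to 6 called genes: 0 without wild type LoaOOH replicate 3, 1 without wild type LoaOOH replicate 1 or 2 or C404A LoaOOH replicate 2 or 3, and 6 without C404A LoaOOH replicate 1, with PNC1, RTN2 and XBP1 in addition. Over all genes these runs called 284 to 471, against 402 with all arrays. GPD1 was at -0.25 without C404A LoaOOH replicate 2. Without both C404A replicate 2 arrays RGI1 alone was called, beside 7.14% of all genes.

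The RGI1 differences were not called once the shift of its chromosome was taken out. After the median chromosome V shift of each mutant array was removed, RGI1 differed from wild type by 0.43 ± 0.266 in deletant control cells (adjusted p = 0.401 by limma) and by 0.62 ± 0.266 in C404A control cells (adjusted p = 0.192). After LoaOOH it differed by 0.39 ± 0.266 in the deletant (adjusted p = 0.451) and by 0.40 ± 0.266 in C404A (adjusted p = 0.422).

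The genes differed widely in how far replicates lay apart. The spread was taken as the SD, within genotypes, of the mean of the control and LoaOOH arrays of the same replicate number. It was 0.892 for GRE1, 0.569 for SPG4, 0.479 for ALD3, 0.348 for HSP26 and 0.329 for RGI1, against a median of 0.103 over all genes and 0.145 over the 31. At the other end stood YGP1 at 0.0395, PNC1 at 0.0436 and GRE3 at 0.0454, which were called in the averaged response in spite of modest changes. Of the 6 genes not called in the averaged response, GRE1, SPG4, HSP26 and RGI1 had wide spreads, and HOR7 and MRH1 had narrow ones with small differences.

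**Figure D4:**
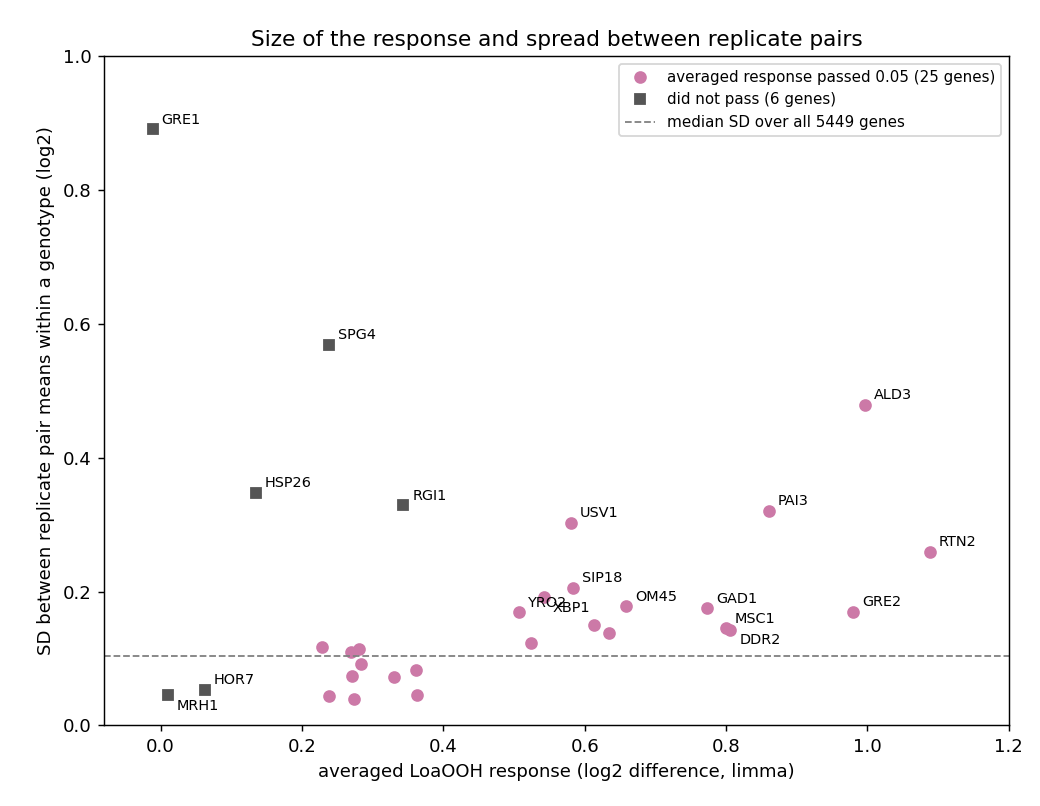
Averaged LoaOOH response (log2, horizontal axis) against the SD between replicate pair means within a genotype (log2, vertical axis) for the 31 genes. Circles passed the adjusted threshold (25 genes), squares did not (6 genes), and the dashed line is the median SD over all genes, 0.103. GRE1 and SPG4 stand highest, and YGP1 and PNC1 lowest among the circles.

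Among the genes with wide spread, GRE1, SPG4 and RGI1 deviated together most closely. After the group means were removed, GRE1 and SPG4 correlated at Pearson's r = 0.943 over the 18 arrays, SPG4 and RGI1 at 0.912, and GRE1 and RGI1 at 0.890. Without the C404A replicate 2 arrays the values were 0.935, 0.911 and 0.910 over 16 arrays. Pairs with HSP26 or ALD3 were lower, from 0.532 for HSP26 with ALD3 to 0.838 for SPG4 with HSP26 over 18 arrays. Over 16 arrays the same pairs gave 0.510 and 0.816. Wild type replicate 1 and C404A replicate 3 were high for GRE1, SPG4 and RGI1 in both treatments. The exception was RGI1 in wild type after LoaOOH, where replicates 1 and 2 were level at 11.95 and 11.94 and replicate 3 was 11.35. Over the 465 pairs of the 31 genes, 414 correlations were positive with a median of 0.484 over 18 arrays, and 352 with a median of 0.333 over 16. All these values share arrays and are given as a description.

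Of the 31 genes, 8 lie on chromosome XIII, and some of them are neighbours. PAI3 and SIP18 are next to each other among the measured genes and their levels correlated at Pearson's r = 0.786 over the 18 arrays. ALD3 and ALD2, also next to each other, correlated at 0.461, and GAD1 and HOR7, with 1 measured gene between them, at 0.443. Treatment and genotype enter these correlations, which are descriptions.

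The trehalose, glycogen, chaperone and antioxidant genes of the same response, a separate list of 26 genes, also rose in number. In the averaged response 19 of the 26 rose and none fell, beside 9.56% of all genes higher, with a median of 0.41. Without C404A replicate 2, 21 rose, beside 13.1% of all genes. PGM2, a phosphoglucomutase, rose by 0.70 ± 0.101 (adjusted p = 0.000986 by limma), and CTT1, the cytosolic catalase, by 1.00 ± 0.158 (adjusted p = 0.00137). SOL4, of the pentose phosphate pathway, rose by 0.92 ± 0.140 (adjusted p = 0.00124), and the chaperone gene SSE2 by 0.59 ± 0.0899 (adjusted p = 0.00125). In the deletant 8 of the 26 rose, beside 3.56% of all genes called, and in wild type and C404A 0 were called by limma. An unadjusted p below 0.05 was reached by 21 in wild type and 8 in C404A, against 1027 and 319 of all 5449 genes. Against wild type, calls were about as frequent as over all genes. The only called genes were GLC3, SSA4 and HSP78, which were higher in control cells of both mutants, and GLC3 and SSA4 lie on chromosome V. That is 11.5% of the 26, beside 10.1% of all genes called in the deletant and 8.24% in C404A. After LoaOOH the 3 were higher in the deletant, beside 10.4% of all genes called, and GLC3 in C404A, beside 7.38%.

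Most of the regulator transcripts called in the averaged response rose. Of 26 measured genes of the Msn2/Msn4, protein kinase A and related signalling list, 6 rose and 1 fell, or 26.9% called beside 21% of all genes. Over all genes 9.56% rose. The median difference was 0.093 for the 26 and 0.00088 for all genes. Without C404A replicate 2, 9 rose and 1 fell, where 13.1% of all genes rose and 27.6% were called. MSN2 rose by 0.14 ± 0.0405 (adjusted p = 0.0216 by limma). MSN4 differed by 0.12 ± 0.0826 (adjusted p = 0.330) and was called in none of the 11 comparisons. BMH2, a 14-3-3 protein, rose by 0.12 ± 0.0270 (adjusted p = 0.00651), and BCY1, the regulatory subunit of protein kinase A, by 0.21 ± 0.0508 (adjusted p = 0.00910). BMH1, the paralog of BMH2 on chromosome V, rose by 0.091 ± 0.0278 (adjusted p = 0.0308). RAS1, which encodes a GTPase upstream of adenylate cyclase, fell by 0.26 ± 0.0823 (adjusted p = 0.0344). Against wild type, BMH1 was higher in both mutants and both treatments, from 0.19 to 0.25, and lower, from -0.54 to -0.45, with the chromosome V shift removed. In the deletant after LoaOOH 15.4% of the 26 were called, beside 10.4% of all genes. Besides BMH1, PSR2 was higher by 0.36 ± 0.0979 (adjusted p = 0.0253 by limma) and WHI2 by 0.23 ± 0.0631 (0.0286), and SCH9 was lower by 0.23 ± 0.0663 (0.0386). Nuclear entry of Msn2 and Msn4 is not measured by these arrays.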

How the data were processed

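Expression was measured on Affymetrix Yeast Genome arrays in 18 samples. The deposited values were used as log2 signals, 1 per probe set and array; the log2 base was taken from the value range, 2.47 to 14.99. Affymetrix Expression Console and PLIER are named in the submitters' processing notes, and how arrays were normalized to each other is not stated there. The arrays also hold probe sets of another organism, which gave the background level (95th percentile of 1746 probe set means). Genes were named through the platform annotation, and 5449 were tested, with a probe set of plain suffix before others and then the brightest where a gene had several. Depth does not apply to arrays, and 3 arrays per group limit the precision.

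Groups came from the sample titles. Group means were fitted over all 18 arrays with limma 3.58.1 (R 4.3.3), with empirical Bayes variances and Benjamini-Hochberg adjustment over 5449 genes in each of 11 comparisons. The procedure was tested on simulated data. The members and lists were chosen with earlier results of these data known. Values of every array are given for each of the 31 genes called in at least 1 comparison; the others are given by range, and of the 2 other lists at most 4 called genes in a comparison, with MSN2 and MSN4.

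Replicate numbers were checked for pairing by correlating deviations from the group means of same-numbered control and LoaOOH arrays. The correlations were 0.856, 0.502 and 0.640 in wild type, 0.115, 0.182 and 0.605 in C404A, and 0.264, 0.250 and 0.0548 in the deletant. A cut-off of 0.1 for all values of a genotype counted wild type and C404A as paired and the deletant as not. In the deletant, arrays of unlike number gave lower values, from -0.232 to 0.00093, so this cut-off does not settle the pairing. In C404A the pairing of replicates 1 and 2 is weak: control 1 with LoaOOH 2 gave 0.227 and control 2 with LoaOOH 1 gave 0.187. Alternatives covered normalization, filter, probe set rule, replicate block, arrays left out, CT arrays alone, chromosome V and the variance model. Promoter and protein sequences were not analysed here.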

Additional observations from a re-analysis of the deposited data

How the results depend on the processing

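No call on the 31 genes changed direction under any alternative run. The responses were also fitted with the control and LoaOOH arrays of the same genotype and replicate number as a block. That gave 27 genes called in the averaged response (SPG4 and RGI1 in addition), beside 34.6% of all genes. The same block gave 15 in the deletant, beside 4.94%, with YGP1, GRE2 and DCS2 lost and HSP26 and RGI1 gained. It gave 0 in wild type and in C404A. For differences between genotypes the block was the replicate number alone. With it GRE1 in deletant control cells had -2.34 with an adjusted p of 0.0505 by limma. Without both C404A replicate 2 arrays the counts became 15 in wild type, 8 in C404A, 4 in C404A against wild type control cells and 1 after LoaOOH. An intensity trend in the variance prior gave 7 in wild type and 1 between the control cells of the mutants. The CT arrays alone gave 0 in the deletant and 3 in deletant against wild type control cells. Against wild type they lost GPD1 and gained GRE1 in C404A control cells and in the deletant after LoaOOH, and in C404A after LoaOOH they lost GPD1, RGI1 and YRO2 and gained GRE1 and ALD3. Removing the chromosome V shift left 0 in C404A against wild type control cells, 1 in the deletant and 0 in C404A after LoaOOH. In deletant control cells GRE1 and RGI1 lost their calls. GPD1, YRO2 and GRE1 lie on other chromosomes, so their differences were unchanged and only their adjusted p moved. Removing the shift also turned the sign of BMH1 against wild type, to -0.54 in deletant and -0.45 in C404A control cells and to -0.54 and -0.52 after LoaOOH. This turn follows from the median subtracted. Shares over all genes are not given for the CT and chromosome V counts here, nor for the trend count between the mutants. Whether calls over all genes moved likewise in those runs is therefore not shown. Leaving out single arrays gave 0 to 0 genes in wild type, 0 to 8 in the deletant, 0 to 3 in C404A, 24 to 26 in the average and 0 to 0 in both response differences. Over all genes the counts were 0 to 1, 0 to 59, 0 to 183, 867 to 1569 and 0 to 0 in turn. Single arrays left out gave 2 to 5 in deletant and 1 to 3 in C404A against wild type control cells, 0 to 3 between the mutants, and 1 to 2 in the deletant and 0 to 6 in C404A after LoaOOH. Here the counts over all genes were 361 to 484, 268 to 465, 40 to 99, 391 to 477 and 284 to 471 in turn. For the other shifts the cause was not tested.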
